A study of Mus musculus with 4 samples.

Results

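The expression ranking of sorted mouse alveolar type II cells ordered 15667 of the 27374 gene names on the array by how brightly their probes lit up over all 4 arrays of the series. A gene entered the ranking when at least 1 of its probes was well above background on all 4 arrays, and its brightest such probe stood for it. Levels are log2 processed signal minus the array's own 75th percentile over gene probes, so a level of 0 is the signal that 75% of gene probes stayed below. The rank is that of the mean level over the 4 arrays.

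Alveolar type II cells are the cuboidal epithelial cells of the lung alveolus. They make pulmonary surfactant, store its lipids and proteins in lamellar bodies and secrete them onto the air side of the alveolus. They also move sodium and phosphate out of the alveolar fluid, release defence proteins, and give rise to the flat type I cells that carry gas exchange.

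The cells were sorted by flow cytometry from dissociated lungs, and RNA was hybridised to Agilent mouse arrays in Cy3. The 4 groups were wild-type (WT) mice without tumor, WT mice 2 weeks after Lewis lung carcinoma cells were placed under the skin, Tlr3-deficient (Tlr3-/-) mice without tumor, and Tlr3-deficient mice 2 weeks after the same inoculation. Lewis lung carcinoma is a transplantable mouse tumor line. Per the labels all 4 samples came from females. The labels give neither the age of the mice, nor the number of mice behind an array, nor the surface markers of the sort, nor which part of Tlr3 is missing. Each group had 1 array, so no value below has a replicate check and no test was made. With 4 arrays, any gene has 2 arrays that read above the other 2, split by tumor, by genotype or by neither. Such an order of arrays is given below as a description, and its share over all ranked genes was not counted. Values are printed with the WT arrays first and the Tlr3-deficient arrays after them, and within each pair the array without tumor comes before the array with tumor.

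The 75th percentile of the processed signal was 555, 796, 758 and 904, and between 61.0% and 65.4% of spots were well above background. No gene spot was saturated on any array. Probes printed more than once on an array gave a median SD between spots of 0.21 on the array of WT without tumor and of 0.05 to 0.07 on the other 3. The arrays sat on 3 slides, and only WT with tumor and Tlr3-deficient without tumor shared a slide, which leaves group and slide impossible to separate. Both Tlr3 probes missed the ranking, since neither was well above background on the array of Tlr3-deficient without tumor. The brighter Tlr3 probe read -3.93, -3.94, -5.45 and -5.30, and the authors' deposited table gives other values for both probes. No source used here says if either probe falls inside the deleted stretch. The array labelled Tlr3-deficient without tumor, female, went against its label for sex. Xist, the RNA that coats the inactive X chromosome, read 4.05, 4.04, -4.05 and 3.80, and the Y-linked genes Ddx3y, Eif2s3y and Kdm5d were well above background on that array alone.

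The 5 type II markers ranked high on every array, from rank 2 for Sftpc to rank 431 for Slc34a2 by the mean level. Sftpc, surfactant protein C, had the brightest probe of any protein-coding gene by the mean and was preceded only by Rn18s, the 18S ribosomal RNA. Its level was 8.84, 9.30, 9.39 and 9.03, with a mean of 9.14 ± 0.25 (SD over the 4 arrays, n = 4). The array of WT without tumor was the lowest for Sftpc, and there it held rank 6 against rank 2 on the other 3 arrays. Lamp3, a membrane glycoprotein of the lamellar body, held rank 75 with levels of 7.46, 7.44, 6.81 and 7.25. Sftpb, surfactant protein B, held rank 79 with levels of 7.38, 7.06, 7.22 and 7.19. Its range was 0.32, and no array stood apart. Napsa, the aspartic protease that helps process pro-surfactant protein B, held rank 111 with levels of 7.38, 6.97, 6.60 and 6.67. Both WT arrays read above both Tlr3-deficient arrays for Napsa. The 15 highest secreted proteins, Napsa among them, leaned the same way as a list. Their median offsets from each gene's own median were 0.18, 0.07, -0.07 and -0.13. Slc34a2, the sodium-phosphate cotransporter of the type II cell, held rank 431 with levels of 5.52, 5.41, 5.23 and 5.42.

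In the array's annotation, on mm9, the Sftpc probe lies at chr14:70920899-70921159 on the minus strand and the Sftpb probe at chr6:72257183-72259754 on the plus strand. The Napsa probe lies at chr7:51840710-51841119 on the plus strand. These 3 spans are longer than a probe, as for a probe that crosses an exon junction. The Lamp3 probe lies at chr16:19653772-19653831 on the minus strand and the Slc34a2 probe at chr5:53462121-53462180 on the plus strand.

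All 26 genes of a wider type II list were ranked, and 21 of them were among the 1566 highest genes, which are 10.0% of the ranking. Their median rank was 108.5. High members outside the surfactant proteins were Fasn, the fatty acid synthase that feeds surfactant lipid synthesis, at rank 9, Scd1, a fatty acid desaturase, at rank 104, and S100g, a calcium-binding protein, at rank 106. Abca3, the lamellar body lipid transporter, held rank 566 and Lpcat1, an enzyme that remodels phosphatidylcholine, rank 636. Nkx2-1 and Cebpa, transcription factors of the lung epithelium, held ranks 1387 and 1091. At the low end stood Fabp5 at rank 9044 and Slc27a2 at rank 13241. The summed level of the list, which is log2 of the sum of its linear scaled signals, was 12.01, 11.98, 11.83 and 11.81, a range of 0.20 over the 4 arrays.

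**Figure D1:**
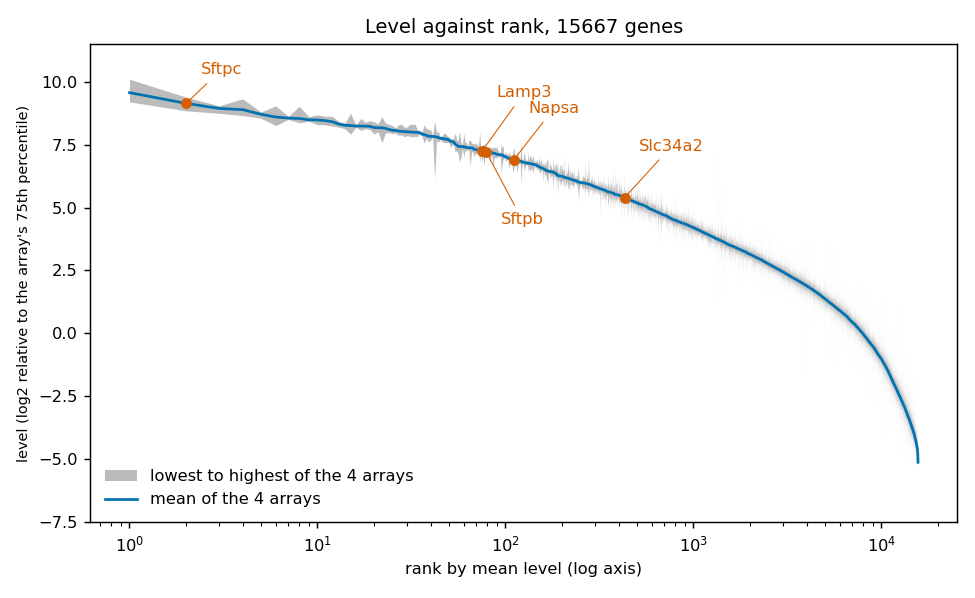
Level of each of the 15667 ranked genes (y axis, log2 units above the 75th percentile of its array) against its rank (x axis, log scale), with the mean of the 4 arrays as a line, the lowest to highest array as a grey band and the 5 type II markers as points. Sftpc sits at rank 2 and Slc34a2 at rank 431, and the dip of the band at rank 42 is Ptprz1 on the array of WT without tumor.

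Probe brightness is not a number of molecules, and the position of a gene depended on which probe stood for it. For 5753 ranked genes with 2 or more probes above background, the brightest and the dimmest probe differed by a median of 2.46 log2 units, and by at least 1 in 79.1% of them. The range of the brightest probe over the 4 arrays had a median of 0.42 in the same genes. Lamp3 shows the size of this spread. Its 3 probes that passed on all 4 arrays had means of 7.24, 5.19 and -3.25, and the dimmest alone would have held rank 13787. Fasn had probes at 8.49 and 2.90 and Epas1 at 7.20, 1.14 and -1.32. Other genes read alike on every probe. Slc34a2 had probes at 5.40 and 5.21, Junb at 7.32 and 7.09, and Cxcl15 at 7.42 and 6.76. The order below is therefore an order of probes, and gaps under the between-probe spread do not rank transcripts.

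**Figure D2:**
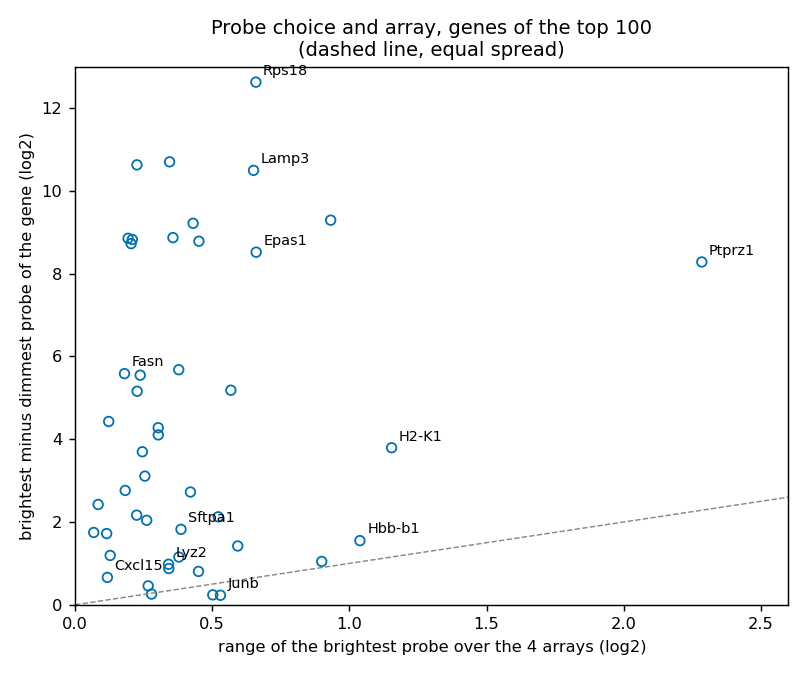
Brightest minus dimmest probe of a gene (y axis, log2) against the range of the brightest probe over the 4 arrays (x axis, log2) for the 46 genes of the top 100 with at least 2 probes above background; each point is a gene and the dashed line marks equal spread. Nearly all points lie above the line, with Lamp3 near 10.5 and Junb near 0.23 on the y axis.

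Cytoplasmic ribosomal proteins, parts of the protein synthesis machinery, were the most numerous class among the 100 highest genes. They made up 40 of them, and 77 of the 82 ranked ribosomal protein genes were among the 1566 highest. The list also held 11 secreted proteins, 4 transcription factors, 2 receptors and no transporter, while 36 genes fell in none of the classes. The receptors were Ptprf and Ptprz1, and the bright Ptprz1 probe is annotated to a chromosome other than that of the gene. Of the names, 6 could not be tied to a RefSeq symbol. The 10 brightest genes took 5.27%, 4.85%, 4.81% and 4.32% of the summed signal of ranked genes, and the 100 brightest took 24.6%, 24.4%, 23.9% and 23.1%. Both shares were largest on WT without tumor and smallest on Tlr3-deficient with tumor.

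Behind Rn18s and Sftpc came Cbr2, a carbonyl reductase abundant in lung epithelium, with levels of 9.04, 9.02, 8.95 and 8.75. It held rank 3 on each of the 4 arrays. Scgb1a1, the secretoglobin best known as the main product of airway club cells, was next at 9.32, 8.90, 8.69 and 8.66. Its highest array was WT without tumor, where it held rank 2 against ranks 4, 5 and 4 on the others. Wfdc2, a small secreted protein with protease inhibitor domains, read 8.80, 8.77, 8.70 and 8.55. Lars2, the mitochondrial leucyl-tRNA synthetase, read 9.04, 8.54, 8.54 and 8.26. Rn18s had the same order of arrays, at 10.10, 9.45, 9.51 and 9.20. Whether the Lars2 probe reads only the mRNA of that gene was not tested. Among the genes that followed were Rps23 at rank 7, Ctsh, a lysosomal cathepsin with a part in surfactant protein processing, at rank 15, and Fau, a ribosomal fusion protein, at rank 16. Ctsh read 8.74, 8.18, 8.19 and 7.91, and without the array of WT without tumor its rank went from 15 to 24.

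Bright genes outside the classes included several of metabolism, iron storage and antigen presentation, named here after their values were seen. Fth1, the ferritin heavy chain that stores iron, read 8.28, 7.92, 7.56 and 7.84 at rank 37. Elovl1, an elongase of very long-chain fatty acids, read 7.69, 7.80, 7.60 and 8.03 at rank 44. Cd74, the invariant chain of class II histocompatibility molecules, read 7.15, 7.62, 7.31 and 7.65 at rank 56, with both arrays from mice with tumor above both from mice without. Npc2, a lysosomal cholesterol-binding protein, read 7.27, 6.69, 7.39 and 7.55 at rank 77, low on WT with tumor. Hspa1a, a stress-inducible chaperone, read 7.82, 7.98, 8.07 and 8.09 at rank 34, with a range of 0.28. Of the genes for oxidative phosphorylation 63 of 88 ranked members were among the 1566 highest, of proteasome and ubiquitin genes 18 of 46 and of translation factors 21 of 57. Over the whole housekeeping set 2.57% of ranked members had a range over the arrays of at least 1 log2 unit, against 15.3% of all ranked genes. The set was also brighter, with a median level of 4.73 against 0.06 over all ranked genes. Among the 1566 highest genes of any kind the share was 7.41%.

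Most neighbours within the 30 highest genes with a symbol had no fixed order. All 29 neighbouring pairs had overlapping ranges over the 4 arrays, and 3 of them kept their order on every array. Over all 435 pairs of these genes, 292 kept their order on every array. The list spanned 1.14 log2 units from Sftpc to COX2, and the ranges of these 2 genes did not overlap. WT without tumor was the highest array for 26 of the 30 genes and Tlr3-deficient with tumor the lowest for 21. Among the 100 highest genes WT without tumor was the highest array for 73 under the 75th percentile, for 54 after quantile normalization, for 79 after centring on the median, for 67 after normexp background correction and for 51 in the authors' deposited table. The same array had the lowest 75th percentile signal and the widest spread between repeated spots. Their part in this pattern was not tested.

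**Figure D3:**
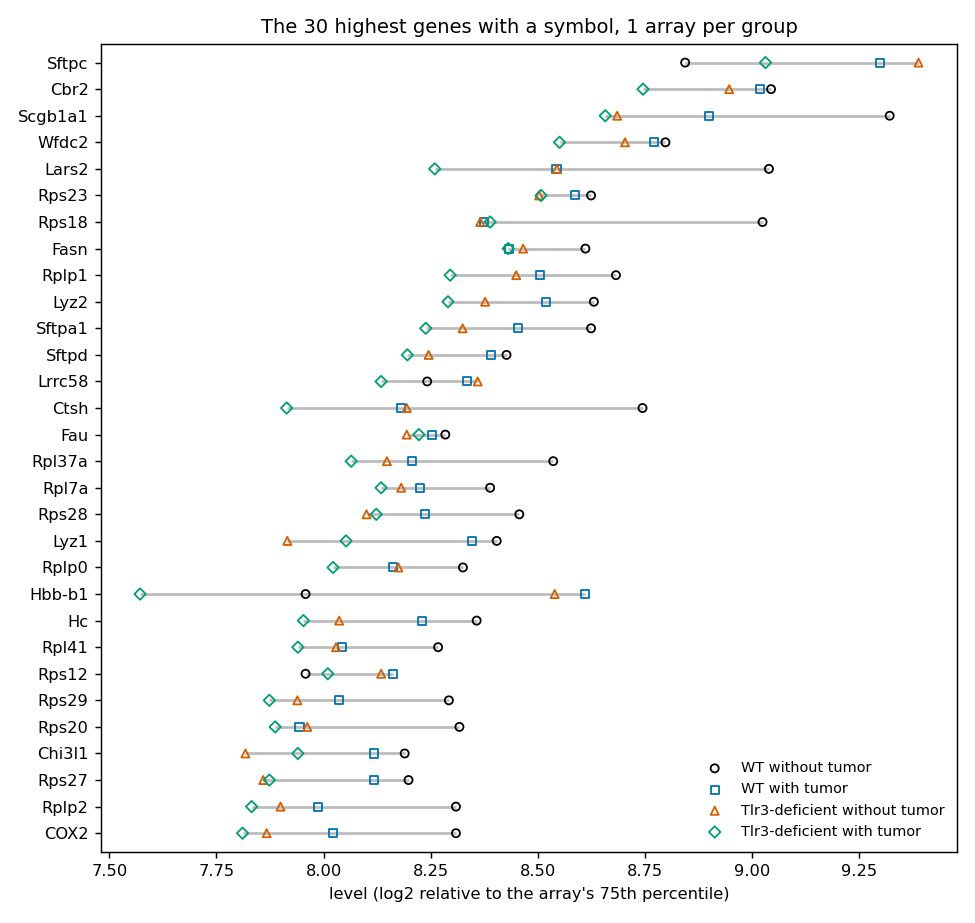
Levels of the 30 highest genes with a symbol (rows) on each of the 4 arrays (x axis, log2 relative to the array's 75th percentile), with 1 symbol per array and a grey line from the lowest to the highest. Sftpc reaches from 8.84 to 9.39, and the array of WT without tumor is the rightmost point in 26 of 30 rows.

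Ranks were steadiest at the top of the list. Between its highest and its lowest rank over the 4 arrays, a gene of the first decile moved by a median of 167 places, and the median was 473 to 1089 places in the other deciles. Genes of the first decile lay further apart, with mean levels from 9.57 to 3.50, against 3.50 to 2.36 in the second. The levels themselves were no steadier in the first decile than in the second, with median ranges of 0.39 and 0.38. Spearman correlations between pairs of arrays ran from 0.977 to 0.987 over all ranked genes and from 0.772 to 0.928 within the 100 highest, as a description across genes, which are not replicates. Of the 100 highest genes, 81 were among the 100 highest on every array, and 121 genes reached that list on at least 1 array. Of the 10 highest, 6 held their place on every array, and of the 1000 highest, 853 did. Leaving out the array labelled Tlr3-deficient without tumor, which went against its sex label, gave 85 of 100 on every remaining array, and leaving out WT without tumor gave 88.

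A range over the 4 arrays of at least 1 log2 unit, which is 2-fold, was found in 2402 of 15667 ranked genes (15.3%). Among the 100 highest genes it was 6, and among the 1566 highest it was 116 (7.41%). Without the array of WT without tumor the count over all ranked genes was 1569 (10.0%), and 4 of the 100 highest genes were left. Without the array labelled Tlr3-deficient without tumor the count over all was 1500. The share was 7.40% in the highest decile, 6.70% in the second, 27.7% in the ninth and 23.5% in the tenth. Position on the array moved with it as well. Genes whose probe sat in array columns 1 to 51 had such a range in 17.5% of cases, against 12.2% in columns 52 to 85, and these shares were 10.2% and 9.68% without the array of WT without tumor.

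The 6 wide genes of the top 100 were Ptprz1, H2-K1, Rpl38 and the hemoglobin genes Hba-a1, Hba-a2 and Hbb-b1. H2-K1, a class I histocompatibility heavy chain, read 7.05, 7.22, 6.83 and 7.99, with Tlr3-deficient with tumor the highest array. Its other 3 probes were also highest on that array, the next brightest at 5.44, 5.90, 5.75 and 7.09. Rpl38 read 6.66, 7.67, 7.61 and 7.56, low on WT without tumor alone, and its range over the other 3 arrays was 0.11. At the other end Ubb, a polyubiquitin gene, read 7.87, 7.80, 7.82 and 7.81, a range of 0.07. The other narrow genes of the top 100 were Rps21, Rpl7, Gm8225 and Fau, with ranges of 0.07 to 0.09. Rank 100 itself was no break in the list. Rps27a at rank 100 had a mean of 7.02 and Rps3a at rank 101 a mean of 7.00, and the genes from rank 96 to rank 105, Cebpd to Gm13777, lay between 7.09 and 6.94.

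Secreted proteins were ranked for 402 of 719 genes of the class, against 57.2% of all gene names. Of these, 55 (13.7%) were among the 1566 highest genes, a list that holds 10.0% of the ranking. The 15 highest were Sftpc, Scgb1a1, Wfdc2, Lyz2, Sftpa1, Sftpd, Lyz1, Hc, Chi3l1, Cxcl15, Sftpb, Napsa, C3, Igfbp7 and Hp, and 12 of them were among the 15 highest of the class on every array. Sftpa1 and Sftpd are collectins, surfactant proteins that bind microbial sugars. Sftpa1 read 8.62, 8.45, 8.32 and 8.24, and Sftpd 8.43, 8.39, 8.25 and 8.20. These probes followed the same order of arrays, with ranges of 0.39 and 0.23. The second Sftpa1 probe read 6.70, 6.70, 6.28 and 6.67 and did not keep that order. Lyz2 and Lyz1, lysozymes that cut bacterial cell walls, held ranks 11 and 20 with means of 8.45 and 8.18. They are near-identical paralogs, so their signals may not be separate.

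Among the secreted defence and signalling proteins, Hc, complement C5, held rank 23 and C3, the central complement component, rank 166. C3 read 6.35, 6.59, 6.08 and 6.83, with both arrays from mice with tumor above both arrays from mice without. Chi3l1, a chitinase-like lectin now named Chil1, held rank 29. Cxcl15, a chemokine made by lung epithelium, read 7.48, 7.44, 7.37 and 7.41 and was the steadiest of the 15, with a range of 0.12. Neighbours in this list overlapped in 13 of 14 pairs, the pair that did not was Chi3l1 over Cxcl15, and 8 of the 14 pairs kept their order on every array. Igfbp7, which binds insulin-like growth factors, was the least steady at 6.76, 6.30, 6.91 and 5.85. Here both arrays from mice without tumor lay above both from mice with tumor. Of chemokines and cytokines as a group, 51 of 108 were ranked and 3 of those were among the 1566 highest genes, against 4 of 6 surfactant proteins and collectins and 14 of 118 matrix proteins and matrix proteases.

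Secreted proteins were the least steady class, with a range of at least 1 in 45.3% of ranked members against 15.3% of all ranked genes. The median level of the class was -0.76, against 0.06 over all ranked genes, and ranges were wider low in the ranking. Of the 68 secreted proteins among the 2000 highest genes, 18 had such a range. The 2000 highest genes lie within the highest and the second decile, where 7.40% and 6.70% of all genes had it. The 5 widest secreted proteins among them were S100a9, Bpifa1, Cst8, Ctgf and Col1a2. S100a9, a calcium-binding protein abundant in neutrophils, read 1.14, 6.31, 1.35 and 5.69. Both arrays from mice with tumor were high and both from mice without were low, which gave ranks of 5585, 183, 5065 and 339. Its overall rank of 1458 moved between 816 and 2563 when each array was left out in turn. Bpifa1, an airway secretory protein, read 4.68, 3.43, 1.83 and 3.52. Col1a2, a collagen I chain, read 3.52, 3.06, 4.51 and 2.92, and Ctgf, a matrix-associated signalling protein now named Ccn2, read 3.48, 2.92, 4.27 and 2.23. The array labelled Tlr3-deficient without tumor was the highest for these last 2 genes.

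Receptors were ranked for 357 of 701 genes, and 28 (7.84%) of them were among the 1566 highest. The brightest probe of the class was named Ptprz1, a receptor-type tyrosine phosphatase, at rank 42 with levels of 6.14, 8.30, 8.42 and 8.43. The array of WT without tumor was lower by more than 2 log2 units, and without it the rank was 11. This probe is annotated to chromosome 14, whereas RefSeq places Ptprz1 on chromosome 6. The other 3 probes named Ptprz1 are annotated to chromosome 6. Of these, 1 read -0.49, -0.19, -0.73 and -0.42, and the remaining 2 were not well above background on any array. The bright signal is reported for the probe and not for the gene, and the probe stays in the receptor counts. Such a mismatch of chromosome was found in 39 of 13383 ranked genes that could be compared and in 4 of 92 of the top 100, the others being Rps29, Rps27 and COX2.

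The next receptors were Ptprf, a receptor phosphatase of epithelial junctions, and Gprc5a, an orphan G protein-coupled receptor induced by retinoic acid. Ptprf read 7.46, 7.24, 7.27 and 7.21, a range of 0.25. Gprc5a read 7.12, 6.72, 7.27 and 6.38, with both arrays from mice without tumor above both from mice with tumor, and its second probe kept that order at 5.37, 4.99, 5.62 and 4.75. A gap followed: Lsr, a lipoprotein receptor of cell junctions, was next at rank 487 with a mean of 5.22, and the ranges of Gprc5a and Lsr did not overlap. The remaining 11 lay between rank 533 and rank 962. They were Cd36, a fatty acid and scavenger receptor, Itga9, an integrin chain, Ager, the receptor for advanced glycation end products, Lrp2, Sdc4, Sdc1, Il11ra1, Ramp2, Gpr56 (now Adgrg1), M6pr and Sort1.

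Endocytic and scavenger receptors had 7 of 35 ranked members among the 1566 highest genes, G protein-coupled receptors 6 of 129 and cytokine and immune receptors 4 of 77. Met, the hepatocyte growth factor receptor, held rank 1062 and Tgfbr2 rank 971. Ager read 5.50, 4.50, 5.43 and 4.74, and Itga9 4.76, 4.56, 5.57 and 5.54. Ager was high on both arrays from mice without tumor, whereas Itga9 was high on both Tlr3-deficient arrays. The 15 highest receptors were less fixed than the secreted list, with 10 of them in the list on every array and 20 genes in it on at least 1. Beyond the 15, the widest receptors among the 2000 highest genes were Epha2, Cd14, Tnfrsf12a and Ptprb, with ranges of 1.01 to 1.29. Cd14, the co-receptor for bacterial lipopolysaccharide, read 3.46, 3.51, 2.50 and 3.63, low on the array labelled Tlr3-deficient without tumor.

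Transporters and channels were ranked for 486 of 831 genes, and 48 (9.88%) were among the 1566 highest, which is close to the 10.0% of the ranking that this list holds. The class began at rank 132 with Atp1b1, the beta subunit of the sodium pump, at 7.21, 6.70, 6.73 and 6.41. Aqp5, a water channel, followed at 6.38, 6.15, 6.72 and 6.47, with no array apart from the others. Scnn1a, the alpha subunit of the epithelial sodium channel through which alveolar fluid is cleared, held rank 408. Slc34a2 held the place 12 in this list. In all, 3 subunits of the vacuolar proton pump that acidifies lamellar bodies and lysosomes were listed, Atp6v1g1, Atp6v1f and Atp6v0e.

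The zinc transporters Slc39a4 and Slc39a7, the mitochondrial ADP/ATP carrier Slc25a5, the peroxisomal transporter Abcd3, the potassium channel subunit Kcne2, the chloride channel family member Clic4 and the lipid flippase Atp11a completed the 15. Of the 15, 13 were in the list on every array. Slc39a7 was the steadiest at 5.38, 5.46, 5.42 and 5.43. Atp11a was the widest at 4.42, 4.84, 5.88 and 5.87, with both Tlr3-deficient arrays above both WT arrays, and its second probe had a mean of 0.29. Kcne2 read 6.16, 5.75, 5.55 and 5.30. Ion pumps and lipid flippases had 11 of 57 ranked members among the 1566 highest, solute carriers 22 of 261 and ATP-binding cassette transporters 2 of 29. Other wide transporters among the 2000 highest were Slc26a4, an anion exchanger, at 2.40, 3.33, 2.94 and 4.47, and Clic5 at 4.30, 3.56, 5.23 and 4.15.

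Transcription factors were detected widely but seldom bright. Of 1083 genes in the class 799 were ranked, which is 73.8% against 57.2% of all gene names, and 42 (5.26%) were among the 1566 highest. The zinc finger genes named Zfp gave the largest family, with 329 ranked and 0 of them among the 1566 highest. The highest members were Junb, Nr4a1, Epas1, Cebpd, Irx1, Klf6, Jund, Klf4, Atf3, Egr1, Fos, Jun, Ybx1, Srebf1 and Stat3. Junb, Jund, Fos and Jun are subunits of the AP-1 factor, and Egr1, Atf3, Nr4a1 and Klf4 are products of immediate-early genes, induced quickly by growth factors and stress. Junb read 7.51, 7.56, 7.17 and 7.03, with both WT arrays above both Tlr3-deficient arrays. The 15 highest transcription factors leaned the same way as a list, with median offsets from each gene's own median of 0.11, 0.03, -0.07 and -0.04. Egr1 read 6.61, 6.46, 6.67 and 6.68, and Fos 6.50, 6.51, 6.44 and 6.64. Neither had an array apart from the rest.

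Epas1, the hypoxia-inducible factor HIF-2 alpha, was lowest on WT without tumor at 6.78, 7.22, 7.35 and 7.44. Its second probe was lowest there too, at 0.71, 1.06, 1.44 and 1.33, and its dimmest, at -1.24, -1.72, -1.29 and -1.02, was not. Srebf1, a regulator of fatty acid synthesis genes such as Fasn and Scd1, held rank 401 with levels of 5.65, 5.46, 5.33 and 5.51. Irx1, a homeodomain factor of lung development, was the least steady of the 15 at 7.29, 7.12, 6.85 and 6.36. In membership the list was the most fixed of the 4 classes, with 14 of 15 members in it on every array, against 13 for transporters. In order it was not, since 75 of its 105 pairs kept their order on every array, against 97 of 105 for secreted proteins. Of all ranked transcription factors 12.9% had a range of at least 1, against 15.3% of all ranked genes. Neighbours did not overlap in 2 of 14 pairs, Fos over Jun and Srebf1 over Stat3. Foxa2, a forkhead factor of lung epithelium, held rank 1023. The widest members among the 2000 highest were Hopx and Tsc22d3. Hopx, a factor also used as a type I cell marker, read 5.12, 4.01, 5.73 and 4.54, with both arrays from mice without tumor above both from mice with tumor. Tsc22d3, which is induced by glucocorticoids, read 3.78, 3.04, 3.76 and 2.28.

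**Figure D4:**
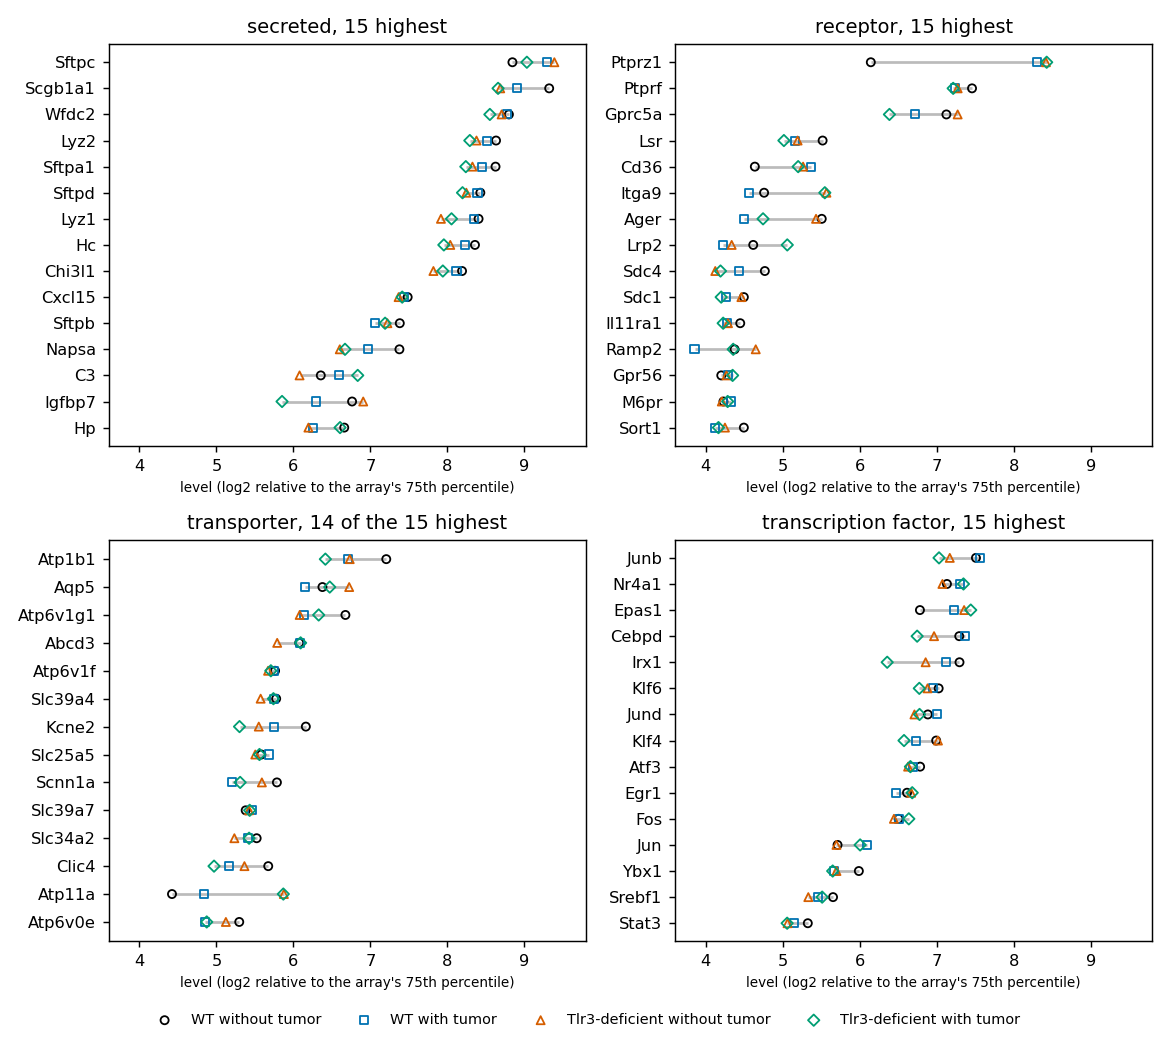
The 15 highest secreted proteins, receptors and transcription factors and 14 of the 15 highest transporters (rows) with their levels on each of the 4 arrays (x axis, log2 relative to the array's 75th percentile, the same scale in each panel); grey lines join the lowest and highest array. Secreted proteins start at 9.14, transcription factors at 7.32 and transporters at 6.76, and Ptprz1 and Atp11a show the widest lines.

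Markers of other cells were present in the ranking, at levels that differed by cell type. Of 12 type I markers all were ranked and 9 were among the 1566 highest genes, with Aqp5 at rank 173 and Emp2, a tetraspan membrane protein, at rank 195. The type I markers outside the 1566 highest were Rtkn2, Igfbp2 and Pdpn, at ranks 3171, 4935 and 13305. The summed level of that list was 8.51, 8.001, 8.98 and 8.27, so both arrays from mice without tumor were above both from mice with tumor. All 10 club and goblet markers were ranked and 5 were among the 1566 highest. These were led by Scgb1a1 at rank 4, Cyp2f2, a cytochrome P450 of club cells, at rank 134 and Scgb3a2 at rank 182. The others were Bpifa1 at rank 1731, Reg3g at 4376, Spdef at 10872, Muc5b at 11730 and Muc5ac at 14592. The summed level of the club and goblet list was 9.95, 9.59, 9.27 and 9.40. Among ciliated markers 2 of 10 reached the 1566 highest genes, and Foxj1, the ciliogenesis factor, held rank 3534. The epithelial keratins Krt18 and Krt8 held ranks 98 and 189, while Krt5, Trp63 and Krt14 of basal cells stood at ranks 7922, 14584 and 14022.

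In all, 3 hemoglobin genes were within the 100 highest. Hbb-b1, now named Hbb-bt, read 7.96, 8.61, 8.54 and 7.57, and its other 3 probes were also highest on WT with tumor and Tlr3-deficient without tumor. Without the array of Tlr3-deficient with tumor its rank went from 22 to 14. Hba-a1 read 7.02, 7.86, 8.03 and 6.80. These 2 high arrays are those that shared a slide, and slide and sample cannot be told apart here. The summed level of the erythroid list was 8.99, 9.67, 9.70 and 8.60, with 6 of 7 markers on the array ranked, and the red cell membrane gene Slc4a1 at rank 10857.

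Leukocyte markers sat far lower. Of 9 pan-leukocyte markers 8 were ranked and none was among the 1566 highest genes. Ptprc, which encodes CD45, read -3.21, -0.52, -3.79 and -0.55, higher on both arrays from mice with tumor. The summed level of the list was 3.43, 4.44, 3.14 and 4.34. Alveolar macrophage markers were ranked in 9 of 11 cases, at best at rank 3370, with sums of 3.30, 3.64, 2.88 and 4.10. Neutrophil markers were ranked in 5 of 11 cases, with sums of 1.95, 6.73, 1.79 and 6.08. S100a9 was the brightest of these 5 on each array. S100a8 read -1.49, 3.90, -1.35 and 3.50. Ltf, at 0.25, 3.26, -1.54 and 1.74, was above S100a8 on WT without tumor alone. Csf3r, Cxcr2, Elane, Camp, Ngp and Il1r2 were on the array and not ranked. The unranked members of the first 2 lists were Cd53, and Siglecf and Mrc1. T and NK cell markers were ranked in 3 of 9 cases, Cd3e at rank 14010, Klrb1c at 14667 and Nkg7 at 14724, and Cd3d, Cd3g, Cd4, Cd8a, Gzma and Ncr1 were not ranked.

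Endothelial markers were ranked in 10 of 10 cases with 1 among the 1566 highest, Ramp2 at rank 934. Fibroblast and pericyte markers were ranked in 11 of 11 cases with 3 among the 1566 highest, and their sum of 6.40, 6.06, 7.05 and 6.36 was highest on the array labelled Tlr3-deficient without tumor. B and plasma cell markers were ranked in 5 of 8 cases, without Cd79a, Ms4a1 and Pax5, with sums of 2.78, 3.14, 2.44 and 4.84. Cd79b, the highest of them at rank 2605, read 2.59, 2.83, 2.35 and 3.01. The immunoglobulin gene Iglv1 read -0.98, -0.08, -3.80 and 3.31, and Jchain -2.75, -1.18, -4.03 and 3.34. Iglv1 and Jchain were above Cd79b on Tlr3-deficient with tumor alone. Platelet markers were ranked in 5 of 6 cases, at best Pf4 at rank 4744, and Itga2b was not. In sorted material measured in bulk, fewer cells of a type and less RNA per cell cannot be told apart. The part of other cells in any rank given here was not tested.

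**Figure D5:**
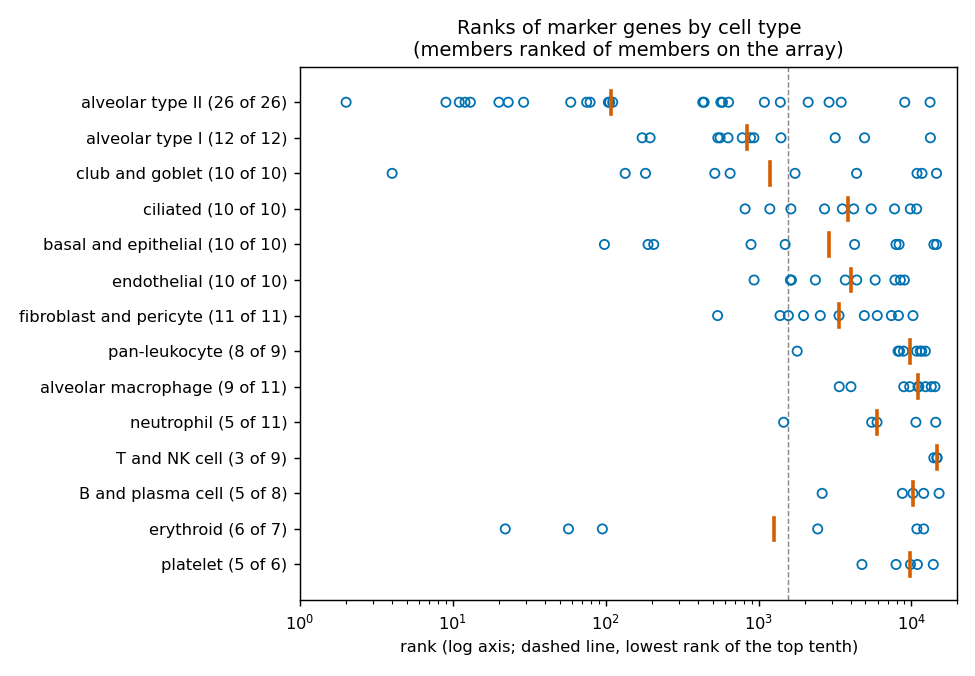
Rank of each ranked marker gene (x axis, log scale, brightest at the left) for 14 cell types (rows, with the members ranked of those on the array); open circles are genes, orange bars the median rank of the list and the dashed line the lowest rank of the 1566 highest genes. Type II markers have the leftmost median, 108.5, and leukocyte, macrophage and T cell markers lie at the right.

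Promoters of the highest genes held the TATA motif in a larger share than those of all ranked genes. RefSeq promoters of the GRCm38.p6 assembly, from 250 bases before to 50 after the gene start, could be matched to 68 of the 100 highest genes and to 10670 ranked genes. The letters TATAAA on the gene's strand or its complement were found in 13 of the 68 (19.1%), in 7.98% of the ranked genes and in 14.2% of all 27025 promoters in the table. Among the top 100 genes other than ribosomal proteins the count was 10 of 41 (24.4%), among the 30 highest secreted proteins 6 of 21 (28.6%) and among the 30 highest receptors 0 of 21. Only 4 of the 68 had TATAAA on the gene's strand between 40 and 15 bases before the start, where the TATA-binding protein is known to sit, which is 5.88% against 1.60% of ranked genes. These 4 promoters are shown because they place the motif at that distance, from 60 bases before the start to 20 after it, with TATAAA in capitals.
Sftpa1, chr14:41131728-41131807, plus strand: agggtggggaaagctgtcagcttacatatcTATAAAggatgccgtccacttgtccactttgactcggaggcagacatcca
Cxcl15, chr5:90794474-90794553, plus strand: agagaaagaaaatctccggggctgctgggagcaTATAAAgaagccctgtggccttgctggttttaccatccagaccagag
Hbb-b1, chr7:103813904-103813983, minus strand: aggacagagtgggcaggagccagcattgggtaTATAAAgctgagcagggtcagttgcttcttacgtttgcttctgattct
Sod1, chr16:90220702-90220781, plus strand: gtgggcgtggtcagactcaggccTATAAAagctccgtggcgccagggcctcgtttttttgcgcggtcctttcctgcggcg

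In these sequences the motif starts 30 bases before the gene start in Sftpa1, 27 in Cxcl15, 28 in Hbb-b1 and 37 in Sod1, the gene of the copper-zinc superoxide dismutase, at rank 62. Sftpc and Napsa had no entry in the table. The CCAAT motif was found in 36.8% of the matched top 100 and 38.5% of ranked genes, and GGGCGG, the core of the Sp1 box, in 34 of 68 and in 62.7%, both on either strand. The GC share of the probe itself had a median of 45.0% in the top 100 and 43.3% over all ranked genes. Its Spearman correlation with the level across genes was 0.06, but the relation was not even. Of 4061 genes with a probe GC share up to 36.7%, 9 were in the top 100, and their median level was -0.35. At 41.7% to 45.0% it was 41 of 5755 genes, with a median level of 0.38. At 51.7% and above it was 27 of 2723 genes, with a median level of 0.01. The part of probe GC in any rank was not tested.

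Some bright probes could also share signal. Of the top 100 genes 11 had a probe that shared a run of at least 20 bases with a probe of another gene name. Rps20 and the gene model Gm6607, both in the top 100, are shown since they share the 22 bases below and may read the same transcript.
Rps20 and Gm6607: tgaggttgaagtcaccattgca

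The authors' own value table gave nearly the same order. Its columns correlated with the log2 scanner signal at 0.9995 to 0.9998 across probes, and each column had a median between 6.312 and 6.313. None of the 134 named genes changed rank by more than 1.5 times between both sources. Of 28397 probes well above background on at least 1 array, 6 differed between the sources by at least 2 log2 units on such an array, and they belong to 4 genes, Tlr3, Cxcl1, Cxcl2 and Cxcl12. The brighter Tlr3 probe read -6.46, 0.98, -7.49 and -7.27 in the authors' deposited table, against -3.93, -3.94, -5.45 and -5.30 by the scanner files. WT with tumor is far above the other arrays for Tlr3 in that table, whereas by the scanner files both WT arrays read nearly alike for this probe. Cxcl1 held rank 1920 by the scanner files and rank 14041 by the deposited table, Cxcl12 ranks 3979 and 15627, and Cxcl2 ranks 12482 and 15661. By the scanner files Cxcl1 read 3.38, 3.51, 2.79 and 3.16, bright on every array, whereas the authors' deposited table gives -6.54, 3.71, -6.03 and -4.63. The sources used here do not say how these entries of the table were made.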

How the data were processed

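Each of the 4 samples was measured on 1 Agilent 1-colour array of design 014868. The authors deposited processed signals, which per the file headers are linear intensities from which Feature Extraction 10.7.3.1 had taken background and spatial trend. They were not scaled between arrays. The authors' value table holds log2 values of the same arrays and served as an alternative; its steps are not stated in the files or labels used.

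Control spots and outlier-flagged spots were dropped, log2 signal was scaled to each array's 75th percentile, and spots of a probe were averaged. Of 41174 gene probes, 23913 were well above background on all 4 arrays. RefSeq accessions gave 13420 ranked genes a current symbol, which differed from the array's name for 887. Classes are symbol patterns; 101 names that matched a pattern without belonging to the class were removed after the ranking was seen, 82 of them ranked. Markers were listed by hand. The members and lists were chosen with earlier results of these data known.

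Named genes were the 5 type II markers, the 30 highest with a symbol, the 15 highest per class, the 5 widest and 5 narrowest of the top 100, the 5 widest per class among the 2000 highest, the 2 highest and the unranked members of each marker list, Tlr3, and 5 genes on each side of rank 100. Other genes were named after their values were seen, and not every gene that the rule names is reported here. Each group had 1 array, so nothing was tested. Alternatives covered normexp background correction with offset 50 (limma 3.58.1, R 4.3.3), quantile normalization, median centring, the mean of all probes, looser filters, outlier spots kept, the value table, array columns 52 and above, current symbols and leaving out each array. Other steps ran in Python 3.11.15 with pandas 2.3.3 and were tested on simulated data. With 4 arrays, precision is limited by their number.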

Additional observations from a re-analysis of the deposited data

How the results depend on the processing

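The list of 100 highest genes depended on which probes were used. With the mean of all probes, 71 of the 100 stayed, 65 of the 134 named genes moved in rank by more than 1.5 times, Lamp3 to rank 1404, Epas1 to 2121, Fasn to 244 and Ptprz1 to 953, the lowest Spearman correlation between arrays was 0.9718 and 8 promoters of the top 100 held TATAAA. Array columns 52 and above alone, which drop many probes, left 8171 genes, 946 ranked genes with a range of at least 1 log2 and 47 of the top 100, and 76 of the 80 named genes left moved in rank by more than 1.5 times, in a shorter ranking. Members among the highest 10.0% were then 33 secreted, 16 receptors, 29 transporters and 85 housekeeping genes. With no filter on dim probes 27365 genes were ranked, 7096 had such a range, the lowest correlation was 0.9543, and 51 receptors, 74 transporters and 90 transcription factors were in the highest 10.0%. With detection on at least 1 array these were 4844 and 0.9691, and normexp gave 0.9707 and moved 8 of the named genes. Leaving out each array gave 1500 to 1831 genes with such a range. Quantile normalization, median centring, outlier spots kept, current symbols and the authors' value table moved none of the 134 by more than 1.5 times. No paired analysis was possible because each group had 1 array, and the ranking comes from no test. Levels low in the ranking lie near background, where ranges were widest.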
